A study of Homo sapiens with 6 samples.

Results

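The malignant brain tumour (MBT) repeat genes are 9 human genes, L3MBTL1, L3MBTL2, L3MBTL3, L3MBTL4, SFMBT1, SFMBT2, MBTD1, SCMH1 and SCML2. They were taken by name from the 34675 genes of the deposited comparison, and all 9 had a row. The family was singled out because L3MBTL4 had the lowest ratio between the conditions of any gene averaging 50 normalised reads or more. Its values are therefore a description and carry no test. The values of the other members come from the same comparison and are described in the same way.

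The cells were U2932, an established human line derived from diffuse large B cell lymphoma. Samples carried a short hairpin RNA against PRDM11, a PR domain gene (3 samples), or a scrambled hairpin (3 samples), both under puromycin for 3 days. Each group used a single hairpin plasmid, so effects of one hairpin and of PRDM11 loss cannot be told apart, and the labels do not say whether replicates were separate cultures. The values are deposited as conditions A and B, and neither the headers nor the labels say which is the knockdown, so every difference is condition A over condition B. Whole reads of the 3 libraries of each condition were recovered from the condition means, with size factors of 1.21, 1.03 and 0.768 in condition A, against 1.09, 1.05 and 0.951 in condition B. Library 1 is the one with the largest size factor in its condition and library 3 the one with the smallest; these numbers are not the replicate numbers of the labels. PRDM11, the target of the hairpin, had 268, 272 and 323 normalised reads in condition A, against 565, 516 and 545 in condition B.

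MBT repeats fold into a pocket that binds histone tails carrying mono- or dimethylated lysine. The repeat was named after the Drosophila gene lethal (3) malignant brain tumor, whose loss causes larval brain tumours, and the Drosophila relatives Scm and Sfmbt belong to the Polycomb group of repressors. Human members work inside larger complexes, among them variant Polycomb repressive complex 1 (PRC1) for L3MBTL2, the NuA4/TIP60 acetyltransferase for MBTD1 and the KDM1A demethylase complex for SFMBT1 and L3MBTL3. L3MBTL4 is one of the least described members.

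The family was singled out for L3MBTL4. The bases upstream of its 3 annotated starts are shown here because they differ in make-up. They are the 250 bases before each start in RefSeq on GRCh38.p14, minus strand, 5′ to 3′, with the GC box (GGGCGG or its reverse complement CCGCCC) in capitals. The windows lie at chr18:6414912-6415161, chr18:6415260-6415509 and chr18:6367684-6367933, in the order of the lines.
L3MBTL4 start 1: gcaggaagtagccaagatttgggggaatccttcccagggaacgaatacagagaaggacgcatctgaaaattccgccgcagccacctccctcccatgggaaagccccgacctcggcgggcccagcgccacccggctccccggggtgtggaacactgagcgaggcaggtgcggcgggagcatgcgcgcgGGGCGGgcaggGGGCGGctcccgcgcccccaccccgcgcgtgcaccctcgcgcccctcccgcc
L3MBTL4 start 2: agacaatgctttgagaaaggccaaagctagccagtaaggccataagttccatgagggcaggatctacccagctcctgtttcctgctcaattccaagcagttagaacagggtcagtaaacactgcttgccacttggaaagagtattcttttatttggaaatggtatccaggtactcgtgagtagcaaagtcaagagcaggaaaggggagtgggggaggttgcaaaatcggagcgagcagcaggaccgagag
L3MBTL4 start 3: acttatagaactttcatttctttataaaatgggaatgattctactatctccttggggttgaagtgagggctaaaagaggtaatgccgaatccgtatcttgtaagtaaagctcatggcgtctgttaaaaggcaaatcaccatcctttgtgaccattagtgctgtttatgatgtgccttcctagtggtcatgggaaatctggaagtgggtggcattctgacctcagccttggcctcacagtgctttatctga

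Start 1 has a GC-rich window, with 71.6% G and C, 26 CpG dinucleotides and 2 GC boxes. The window of start 2 has 48.8% G and C and 4 CpGs, and that of start 3 has 42.4% and 3 CpGs. Over 35116 RefSeq promoter windows of the same length the medians were 58.0% and 11 CpGs, and 42.6% of windows held a GC box. Searched on both strands, the L3MBTL4 windows held no AP-1 motif (TGANTCA, in 6.57% of all windows), no cAMP response element (TGACGTCA, in 1.65%) and no CCAAT box (CCAAT, in 32%). Start 3 held the TATA box letters TATAAA on both strands in 1 overlapping stretch, a motif found in 10.7% of all windows. That stretch lies near the end of the window farthest from the start, and its use was not tested. Among the other members 7 had windows in the RefSeq table, and 7 of their 12 windows held a GC box. The deposited values are per gene, so the reads cannot be assigned to any of the 3 starts.

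L3MBTL4 was far lower in condition A. In build hg19 the coding intervals of the gene (ENSG00000154655) span chromosome 18 from 5956222 to 6311624, in 19 separate blocks. Its recovered reads were 28, 25 and 23 in condition A, against 86, 147 and 127 in condition B. After division by the size factors these were 23.2, 24.4 and 29.9 normalised reads in condition A, against 78.8, 140 and 134 in condition B. Every library of condition A lay below every library of condition B, and library 1 of condition B was the low one of its condition. In the authors' deposited table the means were 25.8 in condition A, against 117 in condition B. The log2 ratio was -2.19 (standard error implied by the deposited p, 0.42), a 4.55-fold higher mean in condition B.

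The libraries of L3MBTL4 spread more in condition B than in condition A. Their coefficient of variation was 14.0% in condition A, against 28.6% in condition B (n = 3 each). The median over the 1010 genes with a condition A mean of 20 to 30 was 20.7% in condition A, and over the 598 genes with a condition B mean of 100 to 140 it was 11.2% in condition B. Without library 1 of condition B the log2 ratio of L3MBTL4 was -2.40, and without library 2 of condition B it was -2.04. These were the lowest and highest values with any 1 library left out.

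**Figure D1:**
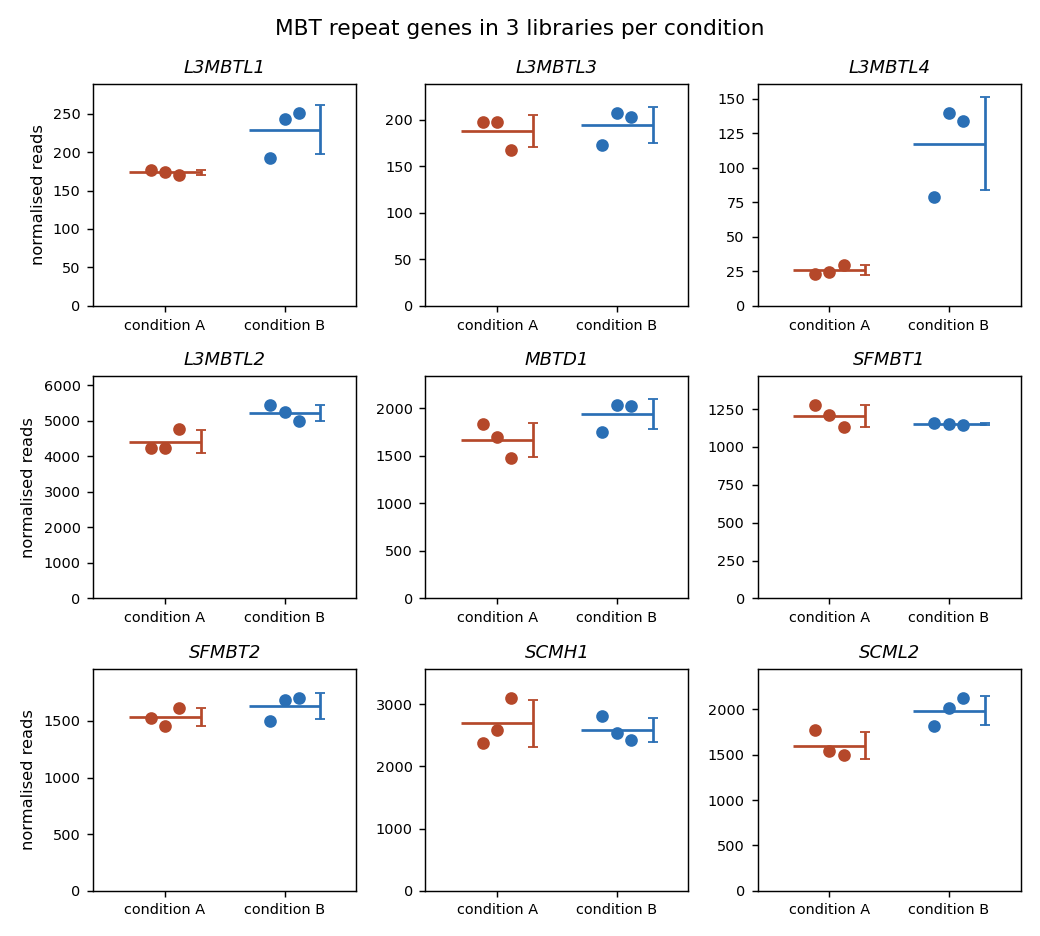
Normalised reads (vertical axes, each from 0) of the 9 MBT repeat genes in the 3 recovered libraries of condition A and of condition B. Points are libraries, horizontal lines are means and bars are 1 SD. L3MBTL4 sits at 23.2 to 29.9 in condition A, below 78.8 to 140 in condition B, while SFMBT1, SFMBT2, SCMH1, L3MBTL3 and MBTD1 overlap.

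L3MBTL1 and L3MBTL3 belong with L3MBTL4 to the L3MBTL1-like branch, whose proteins also carry a SAM domain for protein contacts. L3MBTL1 compacts chromatin that carries methylated lysine 20 of histone H4. Its gene lies on chromosome 20 (hg19 coding intervals 42142210 to 42176882). L3MBTL1 had 177, 175 and 170 normalised reads in condition A, against 192, 243 and 251 in condition B. The libraries did not overlap, and those of condition A differed by little. The log2 ratio was -0.40 with an implied standard error of 0.17.

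L3MBTL3 acts with KDM1A at Notch target genes bound by RBPJ. It is on chromosome 6 (hg19 coding intervals 130363845 to 130460895). L3MBTL3 had 198, 198 and 168 normalised reads in condition A, against 172, 208 and 203 in condition B. The conditions overlapped, and each had 1 low library. The log2 ratio was -0.05, smaller than its standard error of 0.12 from the spread of the libraries. The error implied by p was 0.33, an estimate that is unstable as a ratio nears 0.

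L3MBTL2, which joins the MGA and E2F6 form of PRC1, had the most reads of the family. Its coding intervals lie on chromosome 22 from 41601367 to 41626252 in hg19. L3MBTL2 had 4218, 4228 and 4776 normalised reads in condition A, against 5436, 5253 and 4976 in condition B. The conditions did not overlap, though library 3 of condition A came close to library 3 of condition B. The log2 ratio was -0.24 with an implied standard error of 0.11. CHADL and an antisense gene overlap L3MBTL2 on the other strand, and without a stated strand setting their reads cannot be told apart from it.

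MBTD1, which helps to bring NuA4/TIP60 to methylated histone H4, is on chromosome 17 (hg19 coding intervals 49257940 to 49302522). MBTD1 had 1834, 1697 and 1474 normalised reads in condition A, against 1753, 2033 and 2022 in condition B. Library 1 of condition A exceeded library 1 of condition B, so the conditions overlapped. The log2 ratio was -0.21 with an implied standard error of 0.14.

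The SFMBT genes are relatives of Drosophila Sfmbt, and their libraries overlapped between conditions. SFMBT1, on chromosome 3 (hg19 coding intervals 52939155 to 53003144), had 1276, 1210 and 1130 normalised reads in condition A, against 1158, 1153 and 1145 in condition B. Its log2 ratio was 0.07 with an implied standard error of 0.10. SFMBT2, on chromosome 10 (7205735 to 7423860), had 1530, 1454 and 1616 in condition A, against 1502, 1689 and 1706 in condition B. Its log2 ratio was -0.09 with an implied standard error of 0.12.

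SCMH1 and SCML2 are the relatives of Drosophila Scm, a partner of PRC1. SCMH1, on chromosome 1 (hg19 coding intervals 41493869 to 41651805), had 2383, 2589 and 3108 normalised reads in condition A, against 2804, 2531 and 2422 in condition B. The spread within condition A covered all of condition B, and the log2 ratio was 0.06, with a standard error of 0.13 from the libraries and 0.32 implied by p. SCML2, on chromosome X (18259374 to 18352191), had 1767, 1541 and 1494 in condition A, against 1811, 2016 and 2128 in condition B. Its conditions did not overlap, but library 1 of condition A lay close to library 1 of condition B. The log2 ratio of SCML2 was -0.31 with an implied standard error of 0.13.

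Across the family the DESeq adjusted p of the authors' deposited table was under 0.05 for 1 of 9 members, L3MBTL4, which was lower in condition A, and 0 were higher. Of all 34675 genes 2.54% passed it, 1.57% lower and 0.966% higher in condition A, and 6.04% of the 13565 genes averaging 50 or more did. Nothing is read from the family's count, since L3MBTL4 was chosen on this comparison. Of the 8 other members 0 passed, with DESeq adjusted p from 0.272 to 1, and 3 (SCML2, L3MBTL1 and L3MBTL2) had an unadjusted p under 0.05, against 9.61% of all genes and 20.8% of those averaging 50 or more. By limma on the recovered reads 0 of the 8 passed and 3 had an unadjusted p under 0.05, against 9.01% and 27.0% of the 16376 genes tested. The 3 libraries of condition A lay all below those of condition B in 4 of 9 members (L3MBTL1, L3MBTL2, L3MBTL4 and SCML2), while 34.3% of genes averaging 50 or more, with recovered reads, had separate conditions in either direction. L3MBTL4 is among the 4 and was chosen for its low ratio, so nothing is read from this count either.

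Log2 ratios were below 0 in 7 of 9 members and above 0 in SFMBT1 and SCMH1. With the condition means scaled to their sums, all 9 were below 0, at -0.00078 for SFMBT1 and -0.0076 for SCMH1. That scaling lowers the log2 ratio of every gene by 0.066, so nothing is read from this count. The shares and medians of all genes given here are without it. L3MBTL3 was above 0 (0.03) and SCMH1 below 0 (-0.06) with the least favourable library left out. The family's median log2 ratio was -0.21, and -0.15 over the 8 members other than L3MBTL4, against -0.0024 over all genes averaging 50 or more, of which 50.4% were below 0. Summed over the family without L3MBTL4, the libraries held 13382, 13091 and 13937 normalised reads in condition A, against 14829, 15125 and 14854 in condition B. The sums follow the members with many reads and do not describe each member. L3MBTL2 alone had a mean of 4407 in condition A, against 5222 in condition B, while SFMBT1 and SCMH1 were higher in condition A.

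**Figure D2:**
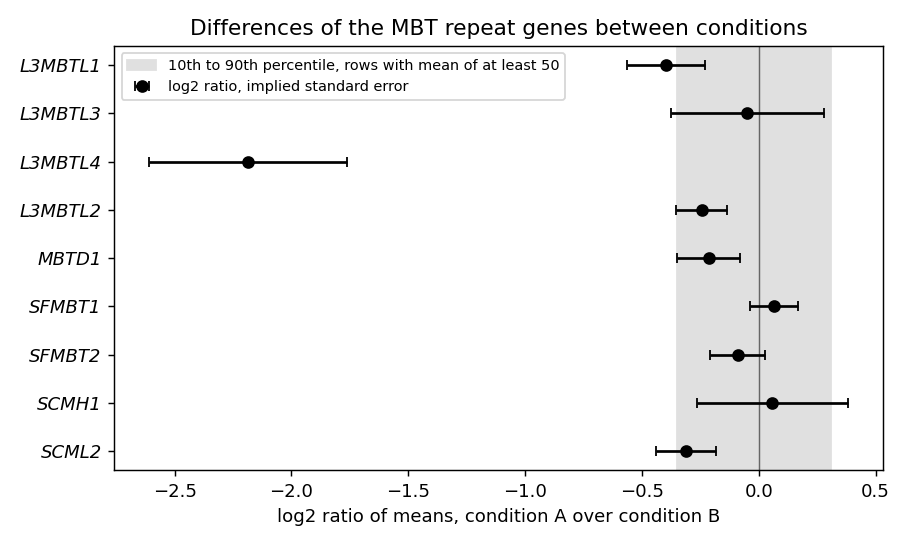
Log2 ratio of the deposited means, condition A over condition B (horizontal axis), for the 9 MBT repeat genes. Bars are 1 standard error implied by the deposited p, an estimate that is unstable for ratios near 0. They are wide for L3MBTL3 and SCMH1. The grey band runs from -0.35 to 0.31, the 10th to 90th percentile of genes averaging 50 or more. L3MBTL4 at -2.19 and L3MBTL1 at -0.40 lie outside it.

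Per length, the members fell into a high and a low group in both conditions. Levels are given as normalised reads per kilobase of GENCODE 29 exon length, scaled to a condition sum of 1000000 (mean ± SD, n = 3). This scaling lowers every log2 ratio of condition A over condition B by 0.066, so levels differ between conditions otherwise than the log2 ratios above. L3MBTL2 was the highest, at 15.6 ± 1.13 in condition A, against 19.3 ± 0.857 in condition B. SCMH1 was next, at 13.8 ± 1.92 in condition A, against 13.9 ± 1.06 in condition B, while its means without this scaling were 2693 in condition A, against 2586 in condition B. In condition A the libraries of L3MBTL2 and SCMH1 overlapped, and in condition B they did not. SCML2 had 8.69 ± 0.792 in condition A, against 11.3 ± 0.914 in condition B, apart from its neighbours in the order.

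The middle of the order was held by MBTD1, SFMBT1 and SFMBT2. MBTD1 had a level of 5.29 ± 0.575 in condition A, against 6.42 ± 0.526 in condition B. SFMBT1 stood at 4.85 ± 0.295 in condition A, against 4.85 ± 0.0256 in condition B, and its libraries overlapped those of MBTD1 in condition A. SFMBT2 had 3.52 ± 0.186 in condition A, against 3.92 ± 0.271 in condition B. By coding length MBTD1 stood above SCML2, and SFMBT2 above SFMBT1, in both conditions.

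All members of the L3MBTL1-like branch were low. L3MBTL3 had a level of 0.839 ± 0.0772 in condition A, against 0.908 ± 0.0896 in condition B, and L3MBTL1 had 0.255 ± 0.00483 in condition A, against 0.352 ± 0.0489 in condition B. L3MBTL4 had 0.0741 ± 0.0104 in condition A, against 0.353 ± 0.101 in condition B. It was thus the lowest member in condition A and overlapped L3MBTL1 in condition B. Per coding length it was the lowest in both conditions, at 0.291 in condition A, against 1.38 in condition B, with L3MBTL1 at 1.45 in condition A, against 1.99 in condition B. L3MBTL4 made up 0.140% of the family's summed level per exon length in condition A, against 0.575% in condition B, and L3MBTL2 29.5% in condition A, against 31.5% in condition B.

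**Figure D3:**
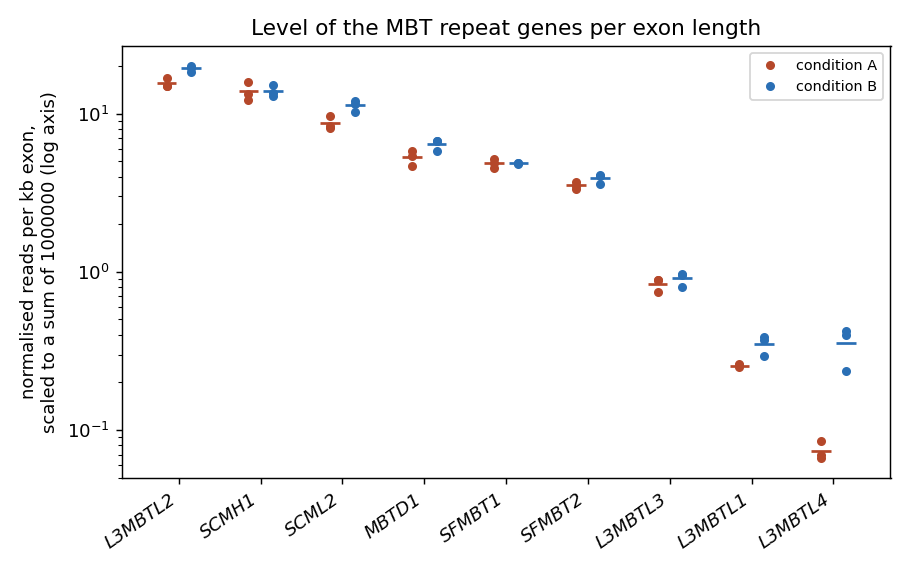
Level of each MBT repeat gene in normalised reads per kilobase of exon, scaled to a condition sum of 1000000 (vertical log axis), with condition A left of condition B. Points are recovered libraries and lines are means. The scaling lowers every log2 ratio of condition A over condition B by 0.066. L3MBTL2 is highest at 15.6 in condition A, against 19.3 in condition B, and L3MBTL4 shows the widest gap, 0.0741 in condition A against 0.353 in condition B.

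The complexes that MBT proteins work in were described through 8 lists, with 88 genes in the table between them. A DESeq adjusted p under 0.05 was given to 2 of the 88 by the authors' deposited table, both higher in condition A, against 2.54% of all genes and 6.04% of those averaging 50 or more. An unadjusted p under 0.05 was given to 10 of the 88, against 9.61% and 20.8%. Neither count exceeds the share of genes averaging 50 or more. PHC3, a Polyhomeotic subunit of PRC1, was the 1 of 21 PRC1 genes called. It had 4711, 5315 and 6502 normalised reads in condition A, against 3465, 3810 and 3705 in condition B, which did not overlap (DESeq adjusted p = 0.0458). Its log2 ratio was 0.59, with 0.18 as the standard error implied by p. GSE1, a subunit of the KDM1A and CoREST complex, was the 1 of 13 SFMBT1 partners called. It had 5340, 5513 and 6634 normalised reads in condition A, against 4022, 4161 and 4108 in condition B (DESeq adjusted p = 0.00458). Its log2 ratio was 0.51, with 0.13 as the standard error implied by p. Both genes were highest in library 3 of condition A. Of the 73 partner genes that limma could test, it called 5 with every library, against 9.01% of all genes tested. It gave 22 of the 73 an unadjusted p under 0.05, against 27.0% of all genes tested. Among them were 6 of 19 PRC1 genes and 5 of 11 SFMBT1 partners tested. It called GSE1 alone without library 2 of condition A, and 0 without library 2 or library 3 of condition B. Of all genes tested it called 2.25%, 2.16% and 2.29% with these libraries dropped.

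In the other 6 lists the authors' deposited table had 0 genes with a DESeq adjusted p under 0.05, against 2.54% of all genes. An unadjusted p under 0.05 was given to 9.61% of all genes and to 20.8% of those averaging 50 or more. Of 14 genes of the L3MBTL2 form of PRC1, 3 had an unadjusted p under 0.05, and the deacetylase HDAC1, with 14698 normalised reads in condition A, against 19034 in condition B, had the smallest (DESeq adjusted p = 0.0587). Among 10 PRC2 genes 1 did, PHF19, which guides PRC2 to chromatin, with 9082 in condition A, against 7025 in condition B (DESeq adjusted p = 0.0755). Of 11 L3MBTL3 partners and substrates 1 did, the cell cycle factor E2F1, with 5145 in condition A, against 6574 in condition B (DESeq adjusted p = 0.0637). By limma, 0 of the 11 genes tested of the L3MBTL2 form passed and 3 had an unadjusted p under 0.05, with HDAC1 not tested for want of recovered reads. PHF19, the 1 called of 7 PRC2 genes tested, and E2F1, the 1 of 8 L3MBTL3 partners tested, passed by limma. Over all 16376 genes tested, limma called 9.01% and gave 27.0% an unadjusted p under 0.05.

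The NuA4/TIP60 list of MBTD1 had the highest median of the lists with over 2 expressed genes. Its median log2 ratio was 0.14, with 13 of 16 log2 ratios above 0, against -0.0024 over all genes averaging 50 or more. The tilt was not particular to this list. Over all partner lists together the median was 0.07, with 56 of 83 genes averaging 50 or more above 0 and 27 below. The PRC1 list had a median of 0.07, with 12 of 20 above 0. EP400, an ATPase subunit, had 6083, 6354 and 8656 normalised reads in condition A, against 4894, 4957 and 5076 in condition B. The conditions did not overlap, and library 3 of condition A stood above the others (log2 ratio 0.50, DESeq adjusted p = 0.322). Of the 16 genes 2, EP400 and the acetyltransferase KAT5, had an unadjusted p under 0.05, against 20.8% of genes averaging 50 or more. By limma EP400 was the 1 called of the 13 tested, against 9.01% of all genes tested. Of these 13, limma gave 6 an unadjusted p under 0.05, against 27.0% of all genes tested. MBTD1 itself had a log2 ratio of -0.21.

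Enzymes and readers of methylated histone H4 lysine 20, the mark that L3MBTL1 binds, had a median log2 ratio of 0.04. Of the 7 log2 ratios 6 were above 0. KMT5A, the enzyme that places the first methyl group, had the smallest p of these 7, with 2914 normalised reads in condition A, against 2539 in condition B (DESeq adjusted p = 0.799). None of the 7 had an unadjusted p under 0.05, and limma called 0, with 1 at an unadjusted p under 0.05. Among 5 SAM domain relatives without MBT repeats, SAMD7 had the smallest p, with 87.1 in condition A, against 65.8 in condition B (DESeq adjusted p = 0.515). It was the 1 of the 5 with an unadjusted p under 0.05, and limma called 0 of 4 tested and had 1 at that level. Of all genes 9.61% had an unadjusted p under 0.05, and by limma 27.0% of the 16376 tested did. PHF1 and SCML1 of the lists had no row among those analysed here.

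**Figure D4:**
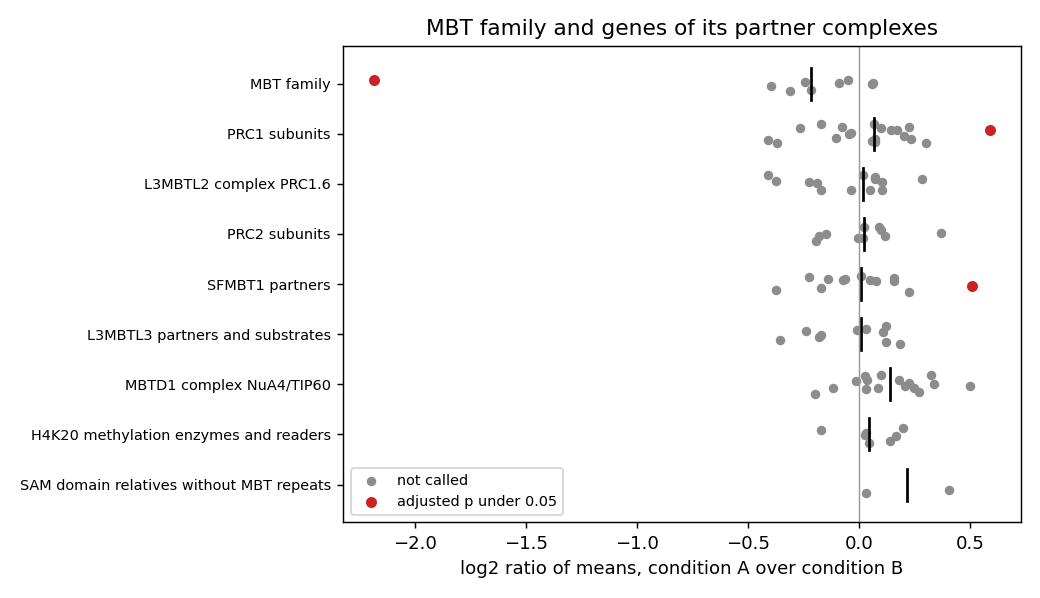
Log2 ratio, condition A over condition B (horizontal axis), of the genes averaging 50 or more in the MBT family and in 8 lists of partner genes. Each point is a gene, red points passed a DESeq adjusted p of 0.05 and black lines are list medians. L3MBTL4 at -2.19, PHC3 at 0.59 and GSE1 at 0.51 are the red points.

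Among the genes next to L3MBTL4, the 4 with a mean of 50 normalised reads or more had log2 ratios from -0.41 to 0.20. The 5 nearest genes with coding intervals on each side were TGIF1, DLGAP1, C18orf42, ZBTB14 and EPB41L3 at lower coordinates and RP11-865B13.1, ARHGAP28, LAMA1, PTPRM and RAB12 at higher ones. Of these 10 genes 6 had a mean of 2.27 normalised reads or less, so a difference like that of L3MBTL4 was not detectable in them. ZBTB14, a zinc finger gene 663 kb away, had 988 normalised reads in condition A, against 1001 in condition B, for a log2 ratio of -0.02. RAB12, a small GTPase gene 2298 kb away, had 528 in condition A, against 459 in condition B, for a log2 ratio of 0.20. TGIF1, a homeobox gene, had 1410 in condition A, against 1611 in condition B, for a log2 ratio of -0.19.

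DLGAP1, a scaffold gene 2076 kb from L3MBTL4, was the 1 of 10 neighbours that passed in the authors' deposited table. Of all genes 2.54% passed, and 6.04% of those averaging 50 or more. It had 2579, 2372 and 2479 normalised reads in condition A, against 3456, 3138 and 3269 in condition B, for a log2 ratio of -0.41 (DESeq adjusted p = 0.0271). Its conditions did not overlap, and the difference was smaller than that of L3MBTL4. By limma it did not pass without library 2 of condition A, library 2 of condition B or library 3 of condition B. L3MBTL4-AS1, which overlaps L3MBTL4 on the other strand, is not analysed here.

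The genes with the profile nearest to that of L3MBTL4 over the 6 libraries were C6orf223, CHI3L2, DOC2A, OPLAH and FNDC1. Profiles were log2(normalised reads + 1) values centred on each gene's own mean, and 9947 other genes with a symbol, an average of 50 or more and recovered reads were compared. The Euclidean distances from L3MBTL4 were 0.49, 0.55, 0.61, 0.97 and 1.13 log2 units, against a median of 2.67 over all genes compared. C6orf223 had 244, 326 and 347 normalised reads in condition A, against 877, 1492 and 1096 in condition B. As in L3MBTL4, library 1 was the lowest of both conditions. DOC2A, which encodes a calcium sensor of vesicle release, had 16.5, 25.4 and 26 in condition A, against 59.6, 93.3 and 82.0 in condition B, with the same low library in each condition. Since these genes were picked for their likeness over these libraries, neither their lower level in condition A nor their shared low library is a separate result.

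**Figure D5:**
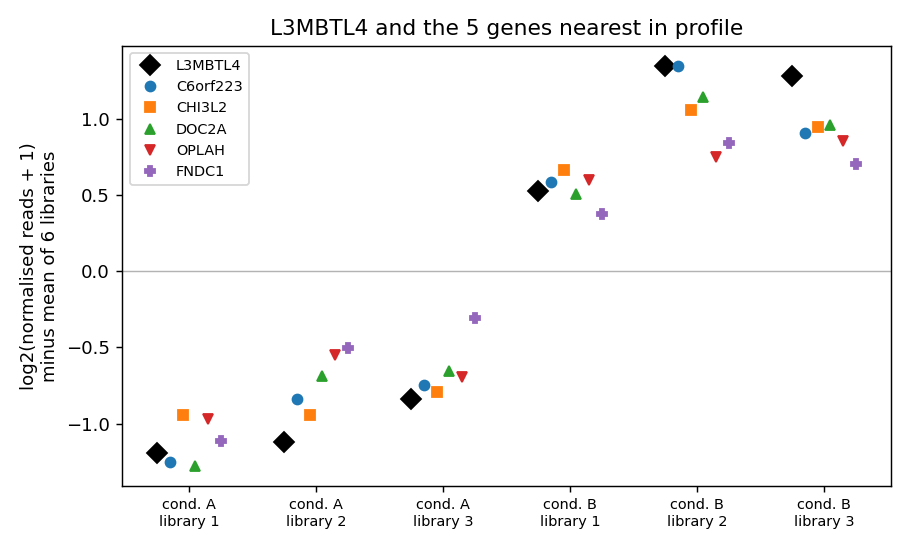
Log2(normalised reads + 1) minus each gene's mean over 6 libraries (vertical axis) for L3MBTL4 (black diamonds) and the 5 genes nearest in profile, by library of condition A and then of condition B. In all 6 genes library 1 of condition B is the lowest of that condition, but the 5 were picked for such likeness.

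Of the whole series, the means of all genes added up to 43812481 normalised reads in condition A, against 41847907 in condition B. The B cell markers MS4A1, CD79A, CD79B, PAX5 and CD22 each had means of 15441 normalised reads or more in both conditions. CD79B had 20659 normalised reads in condition A, against 15441 in condition B (DESeq adjusted p = 0.0226). The 4 T cell markers with a row summed to 18.4 normalised reads in condition A, against 8.80 in condition B, and 5 myeloid markers to 66.8 in condition A, against 54.1 in condition B. Of 7 epithelial and fibroblast markers, EPCAM held nearly all reads, with 1285 in condition A, against 1242 in condition B. The part of other cells in the MBT values was not tested.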

How the data were processed

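The submitters' processing notes name STAR, HTSeq 0.5.4p5, DESeq 1.14.0 and hg19. Neither the annotation release nor the use of strand is given in the sources used here. The deposited means (signal) are in normalised reads: counts divided by size factors and averaged per condition by the authors, per the file headers. The deposited fold and its log2 are condition B over condition A, so the log2 is printed with its sign turned. The deposited p-values and their adjustment over all 34675 rows gave the calls. The deposited score of the hg19 interval file was not used, only its intervals, counted from 1, which matched coding lengths in 97.6% of cases.

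Each condition mean is a weighted sum of 3 whole numbers, so reads were recovered by integer search for means up to 10000 (1 solution in 33610 of 33765 rows of condition A and 33696 of 33848 of condition B). Above a mean of 1500 only libraries at 0.7 to 1.4 times the mean were accepted. Solved rows made up 53.1% of the normalised reads of condition A and 57.0% of those of condition B. The limma test (limma 3.58.1, R 4.3.3, mean trend) used log2(normalised reads + 1) for the 16376 genes with recovered reads and a mean of at least 10, and the search and the limma test were both tested on simulated data.

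The design assumed no per-sample column, and 0 such columns were present. Standard errors are the size of the log2 ratio divided by the normal deviate of the deposited p. This approximation is unstable for ratios near 0, where it can be too wide or too narrow. Where replicates are technical, p-values reflect technical spread only. Named genes are the members, PRDM11, the called genes of each list (or the one with the smallest p), the neighbours of L3MBTL4 and the 5 nearest profiles. The members and lists were chosen with earlier results of these data known. Alternatives were other filters, thresholds, scalings, lengths, a limma test and leaving out each library. Promoter sequences are from RefSeq on GRCh38.p14, which matched 8 of 9 members. The result for 1 marker gene is not reported here.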

Additional observations from a re-analysis of the deposited data

How the results depend on the processing

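L3MBTL4 was called under every setting run, and it was the 1 member called in each setting that kept every library. Since L3MBTL4 was chosen for its low ratio in these same data, its calls describe it and are no separate support. With 1 library left out, limma called between 1 and 2 members, adding SCML2 when library 1 of condition A was dropped, L3MBTL2 for library 3 of condition A and L3MBTL1 for library 1 of condition B. Of all 16376 genes tested, limma called 12.9%, 9.68% and 6.25% with these libraries dropped, against 9.01% with every library. Nothing is read from the added members. The log2 ratio of L3MBTL4 ran from -2.40 to -2.04 with 1 library left out and was -2.25 scaled to sums. Of the 88 partner genes, 2 were called in the main comparison and 5 with p adjusted over genes with a mean of at least 10 or of at least 50, at an adjusted p of 0.1 or by limma, against 1 at 0.01. With 1 library left out limma called from 0 to 9 of them. The count was 9 when library 1 of condition A was dropped, 1 for its library 2 and 6 for its library 3; for condition B it was 4, 0 and 0. Dropping library 2 of condition A, or library 2 or 3 of condition B, also left fewer calls in all, 368, 354 and 375 against 1475 of 16376 genes with every library. Calls in all rose to 2119 and 1586 without library 1 or 3 of condition A and fell to 1024 without library 1 of condition B. DLGAP1, the neighbour of L3MBTL4 called, was not called at 0.01, where 0 of 10 passed, and the range with 1 library left out was 0 to 1. Levels per length were higher for every member by coding length than by exon length, since coding length leaves out untranslated exons. No paired analysis was possible because the recovered libraries cannot be tied to the replicate numbers of the labels. Few reads limit L3MBTL4, with 23 to 28 per library in condition A.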
